A study of Homo sapiens with 12 samples.

Results

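The genes described here encode the route from extracellular cystine to glutathione and on to lipid peroxide repair: SLC7A11 and SLC3A2 (cystine import), CHAC1 (glutathione breakdown), CBS and CTH (transsulfuration, which makes cysteine from methionine), GCLC, GCLM and GSS (glutathione synthesis), GSR (recycling of oxidised glutathione) and GPX4 (use of glutathione against lipid peroxides). All 10 genes, of 11963 named on the arrays, were chosen by name, with earlier results of these data known. All were measured, by 15 of the 22215 probe sets that are not array controls, and 4 of the genes (SLC7A11, CTH, GCLC and GSS) had more than 1 probe set. They were followed in RCC4, an established human cell line from a clear cell renal carcinoma without functional VHL. Cells were transfected for 2 days with a non-targeting siRNA (siNT) or an siRNA against YAP (siYAP), and then received DMSO, the solvent, or 1 µM erastin for 7 hours. Each of the 4 combinations of siRNA and drug had 3 arrays, so that every array comes from transfected and solvent- or drug-treated cells of a single line, and the labels do not say how many siRNA sequences were used.

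Cells take up cystine, the oxidised dimer of cysteine, through system xc-, in which SLC7A11 is the transport subunit and SLC3A2 the heavy chain that carries it to the membrane. Cystine is reduced to cysteine, the limiting building block of glutathione: the glutamate-cysteine ligase (catalytic subunit GCLC, modifier subunit GCLM) joins it to glutamate, and GSS adds glycine. GPX4 spends glutathione to reduce lipid peroxides, and its failure leads to ferroptosis, an iron-dependent cell death. Erastin blocks system xc-. When amino acids run short, the transcription factor ATF4 is known to induce SLC7A11, SLC3A2, CHAC1 and CTH, while NRF2 (encoded by NFE2L2) is known to induce SLC7A11, GCLC, GCLM and GSR.

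Values are log2 expression from RMA (robust multi-array average), where a difference of 1 is a doubling, and run from 2.02 to 14.4. How brightly a probe set reads depends on its probes, so a gap in level between probe sets is not read as a gap in expression, and differences are taken between arrays within a probe set. RMA equalises arrays and compresses changes of dim probe sets, and in bulk RNA fewer cells of a type and less RNA per cell cannot be told apart. Array medians were 6.49 to 6.52 and arrays of a group correlated at 0.9956 to 0.9986. YAP1, the silenced gene, was 15.1-fold lower after silencing in DMSO and 9.72-fold lower under erastin, and the siYAP arrays with erastin included 1 (replicate 2) with YAP1 at 6.21, against 4.68 and 4.90 on the others. Of the markers fixed for renal carcinoma epithelium 7 of 8 were measured, with group medians of 10.06 to 10.16, against 4.26 to 4.36 for 7 endothelial, 5.04 to 5.15 for 9 fibroblast and pericyte and 4.47 to 4.51 for 10 immune markers. These medians are only a rough check of the cell type, and the fibroblast list held higher genes, with group means of 7.43 to 7.94 for ACTA2 and 7.45 to 7.60 for COL1A1. Array means of the epithelial list were 9.75 to 9.86 in siNT and 10.08 to 10.14 in siYAP cells; after silencing in DMSO 3 of the 7 were called higher and 2 lower, and under erastin 3 and 1, where 31.6% and 33% of all genes were called. Of the 9 fibroblast and pericyte markers 2 and 1 were called higher in these comparisons, no endothelial or immune marker was called, and between erastin and DMSO none of the markers of these lists passed. The part of these shifts in the results was not tested. The 3' minus 5' difference of the ACTB control probe sets, which grows with RNA degradation, was 3.35 to 3.71 on the siYAP arrays with erastin, above all other arrays, and 1.49 on siNT with erastin replicate 3 and on siYAP with DMSO replicate 2. The same difference of the GAPDH control probe sets did not set the siYAP arrays with erastin apart. It was 0.13 to 0.20 there, 0.20 to 0.22 in siYAP with DMSO, 0.12 to 0.25 in siNT with DMSO and 0.07 to 0.22 in siNT with erastin.

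The promoters of 4 members that changed are shown because CHAC1 and CTH (probe set 217127_at) were called in all 4 comparisons, SLC3A2 in 3 and GCLM in 2. Windows of 300 bases (250 before to 50 after an annotated start, 5' to 3' on the gene's strand) come from RefSeq and were found for 7 of the 10 genes, 13 windows in all; SLC7A11, GSS and GSR had none. Capitals mark matches, on either strand, to the core of the C/EBP-ATF response element that ATF4 binds (TGATGNAA) or to the core of the antioxidant response element that NRF2 binds (TGACNNNGC).
CHAC1 (GRCh38.p14, chr15:40953221-40953520, plus strand): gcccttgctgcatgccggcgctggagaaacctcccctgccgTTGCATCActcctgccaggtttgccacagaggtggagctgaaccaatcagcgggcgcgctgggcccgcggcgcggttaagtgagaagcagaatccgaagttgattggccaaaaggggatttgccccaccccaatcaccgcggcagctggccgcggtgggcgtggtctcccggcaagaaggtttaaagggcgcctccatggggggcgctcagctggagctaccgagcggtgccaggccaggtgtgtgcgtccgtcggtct
CTH (GRCh38.p14, chr1:70411018-70411317, plus strand): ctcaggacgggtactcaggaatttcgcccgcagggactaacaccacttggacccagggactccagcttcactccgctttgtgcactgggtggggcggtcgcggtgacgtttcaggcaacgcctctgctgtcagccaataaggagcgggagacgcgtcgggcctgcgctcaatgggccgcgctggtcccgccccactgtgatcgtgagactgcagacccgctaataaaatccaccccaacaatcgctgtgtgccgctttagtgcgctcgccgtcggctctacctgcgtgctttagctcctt
SLC3A2 (GRCh38.p14, chr11:62881449-62881748, plus strand): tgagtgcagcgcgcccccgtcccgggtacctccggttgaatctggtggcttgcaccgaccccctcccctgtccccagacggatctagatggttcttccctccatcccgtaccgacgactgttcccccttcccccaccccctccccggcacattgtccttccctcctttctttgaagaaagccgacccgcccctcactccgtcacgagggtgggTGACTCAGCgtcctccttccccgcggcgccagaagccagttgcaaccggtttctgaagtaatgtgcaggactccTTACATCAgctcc
GCLM (GRCh38.p14, chr1:93909381-93909680, minus strand): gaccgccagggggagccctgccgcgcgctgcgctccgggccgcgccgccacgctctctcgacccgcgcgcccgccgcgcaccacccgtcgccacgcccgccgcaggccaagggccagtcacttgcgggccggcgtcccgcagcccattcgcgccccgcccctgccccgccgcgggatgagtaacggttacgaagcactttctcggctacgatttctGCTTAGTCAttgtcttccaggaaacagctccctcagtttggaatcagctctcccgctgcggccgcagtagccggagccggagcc
The CHAC1 window held TTGCATCA, the reverse complement of a C/EBP-ATF match, starting at position -209 from the start site. The SLC3A2 window, 1 of 3 for that gene, held TTACATCA from position 38 and TGACTCAGC from position -37, which opens with the AP-1 site TGACTCA. In GCLM the antioxidant match GCTTAGTCA began at position -34, and the CTH window held neither motif. C/EBP-ATF matches occurred in 2 of the 13 member windows and in 3.62% of all 35116 windows of this length, and antioxidant matches in 3 of 13 and in 13.3%. The TEAD core GGAATG, to which YAP's DNA-binding partners attach, was in 0 of 13 and in 14% of all windows. The 13 windows are not separate units, since SLC3A2, CBS and GPX4 have several each and some of those of GPX4 overlap. The SLC3A2 windows not printed held no match to any of these motifs. A match is a description of letters and not a measured binding site.

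Erastin in siNT cells raised CHAC1, CTH and SLC7A11, and SLC3A2 by a small margin, while CBS and the genes of glutathione synthesis, recycling and use did not pass. In siNT cells 6 of the 15 probe sets rose and none fell (limma, Benjamini-Hochberg adjusted p under 0.05 over all probe sets), those of SLC7A11, SLC3A2, CHAC1 and CTH. The background was low: 0.297% of all probe sets were called, 0.221% higher and 0.0765% lower. The median difference was 0.24 over the 15 probe sets and about 0 over all 22215. Of the 10 probe sets with the largest rise on the array, 5 belonged to these genes, and CHAC1 had the largest of all. Because the genes were chosen with earlier results of these data known, their share among calls and top rises is a description and no test.

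CHAC1, which cleaves glutathione in the cytosol, read 7.03, 7.18 and 7.16 on the siNT arrays with DMSO and 8.68, 8.73 and 8.86 with erastin. On the siYAP arrays it read 6.34, 6.38 and 6.40 with DMSO and 8.09, 7.99 and 7.96 with erastin. The groups did not overlap: siYAP with DMSO was lowest at 6.37 ± 0.03 (SD, n = 3), followed by siNT with DMSO at 7.13 ± 0.08, siYAP with erastin at 8.01 ± 0.07 and siNT with erastin at 8.76 ± 0.09. Erastin raised it 3.1-fold in siNT cells (log2 difference 1.63, SE 0.0669, adjusted p = 1.96e-07 by limma). In siYAP cells the rise was 3.12-fold (1.64, SE 0.0669, adjusted p = 1.84e-07 by limma), rank 2 among all probe sets.

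**Figure D1:**
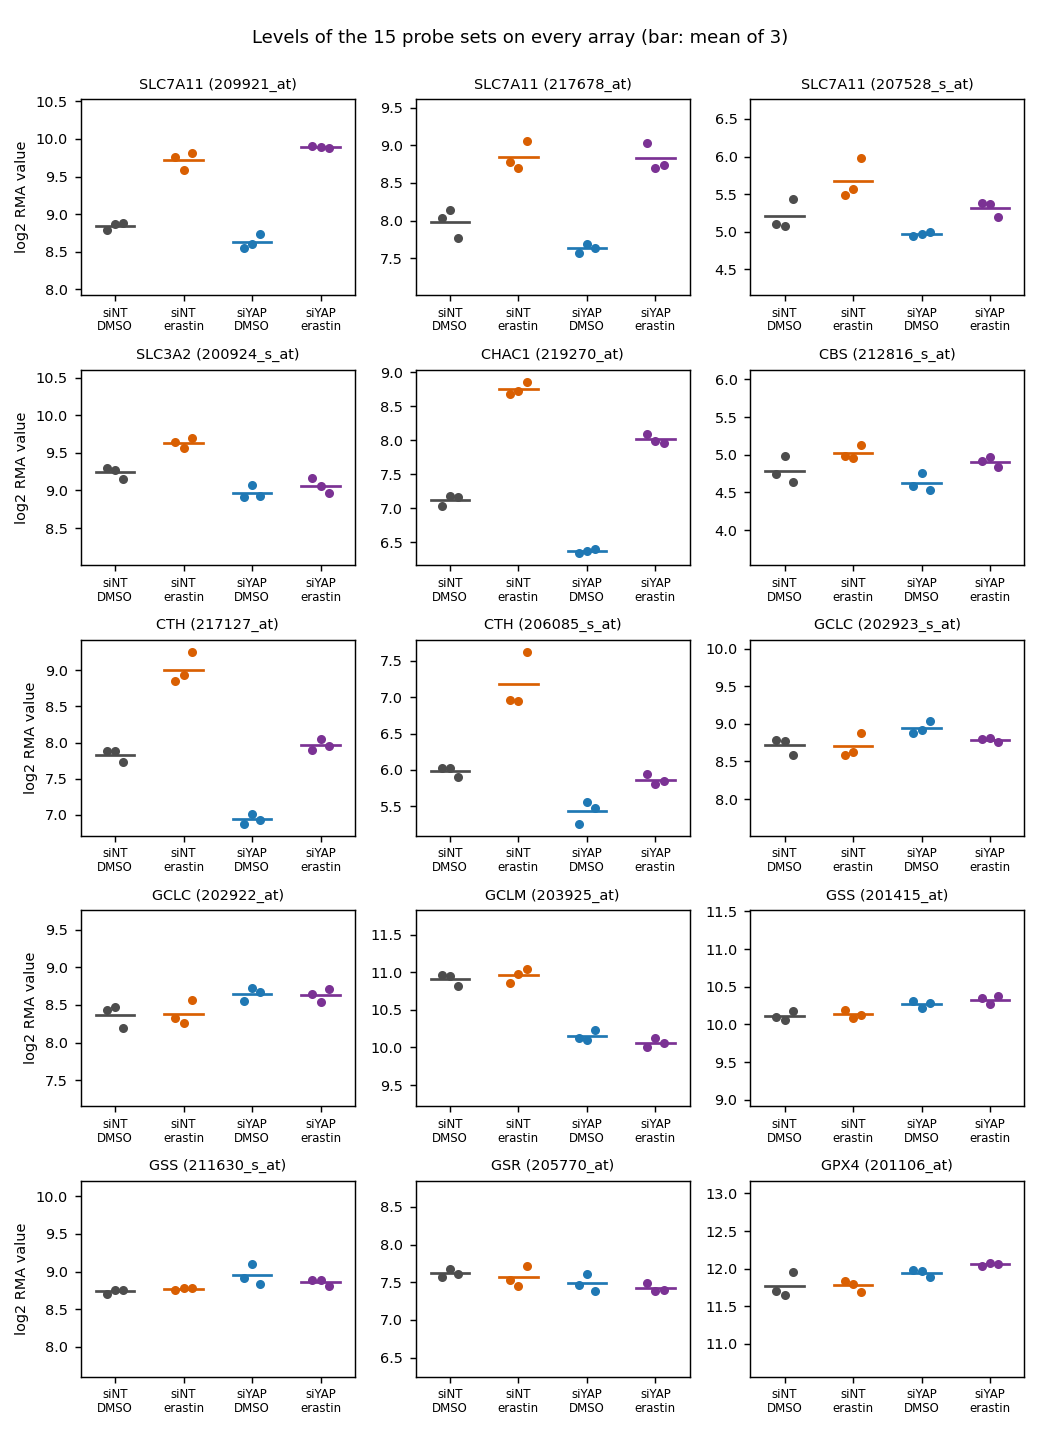
Log2 RMA value of each of the 15 probe sets (one panel each, y axis in log2 units with its own offset) on every array of the 4 groups, with a bar at the mean of 3 arrays. CHAC1 and CTH 217127_at are lowest in siYAP with DMSO and highest in siNT with erastin, whereas GCLM is split by silencing alone.

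CTH, which cleaves cystathionine to release cysteine, had 2 probe sets. Its brighter one, 217127_at, read 7.89, 7.88 and 7.73 in siNT with DMSO and 8.85, 8.93 and 9.25 in siNT with erastin. In siYAP cells it read 6.88, 7.00 and 6.93 with DMSO and 7.89, 8.04 and 7.95 with erastin. siYAP cells given erastin thus stood close to siNT cells given DMSO, with the nearest arrays of these groups at 7.89 each. Erastin raised it 2.26-fold in siNT cells (log2 difference 1.18, SE 0.0947, adjusted p = 6.98e-05 by limma) and 2.04-fold in siYAP cells (1.03, SE 0.0947, adjusted p = 2.28e-04 by limma), on all 3 arrays each time.

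The other CTH probe set, 206085_s_at, read 6.03, 6.03 and 5.90 in siNT with DMSO and 6.96, 6.95 and 7.62 in siNT with erastin. In siYAP cells it read 5.26, 5.56 and 5.47 with DMSO and 5.94, 5.81 and 5.84 with erastin. Its rise with erastin in siNT cells was 1.19 (SE 0.148, adjusted p = 0.00381), and was 0.97 without siNT with erastin replicate 3, the array with the high value and the low ACTB difference of 1.49, whose part in the result was not tested. Fitted on only the 6 arrays compared, this rise was no longer called (adjusted p = 0.1). In siYAP cells the difference was 0.43 (95% interval 0.11 to 0.75, adjusted p = 0.406), so the call from 217127_at was not shared by this probe set there. The siYAP arrays with erastin are also those with the highest ACTB difference, but not the highest GAPDH difference. The part of RNA quality was not tested.

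SLC7A11, the cystine transporter itself, was read by 3 probe sets. The brightest, 209921_at, gave 8.79, 8.87 and 8.88 in siNT with DMSO and 9.76, 9.59 and 9.81 in siNT with erastin. In siYAP cells it gave 8.55, 8.60 and 8.73 with DMSO and 9.90, 9.89 and 9.88 with erastin. None of the groups overlapped, with siYAP cells lowest in DMSO and highest under erastin. Erastin raised this probe set 1.83-fold in siNT cells (log2 difference 0.87, SE 0.0695, adjusted p = 6.98e-05 by limma) and 2.39-fold in siYAP cells (1.26, SE 0.0695, adjusted p = 1.75e-06 by limma).

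Probe set 217678_at of SLC7A11 read 8.04, 8.14 and 7.76 in siNT with DMSO and 8.77, 8.70 and 9.05 with erastin, a rise of 0.86 (SE 0.119, adjusted p = 0.00716, and 0.1 when only the 6 arrays compared were fitted). In siYAP cells it went from 7.57, 7.69 and 7.64 to 9.04, 8.70 and 8.74, a rise of 1.19 (SE 0.119, adjusted p = 4.63e-04). Probe set 207528_s_at, at 4.94 to 5.98 over all arrays, differed by 0.47 (adjusted p = 0.201) and 0.35 (adjusted p = 0.414) and did not pass. Its highest array was siNT with erastin replicate 3.

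SLC3A2, the heavy chain, read 9.29, 9.28 and 9.15 in siNT with DMSO and 9.65, 9.56 and 9.69 with erastin, without overlap. Its rise of 0.40 (SE 0.0711, adjusted p = 0.0433 by limma) lay close to the threshold. It was lost when any of the 6 arrays was left out, with the replicate block and when only the 6 arrays were fitted (adjusted p up to 0.278). In siYAP cells it read 8.92, 9.07 and 8.92 with DMSO and 9.16, 9.06 and 8.97 with erastin. There the groups overlapped, and the difference of 0.10 (95% interval -0.06 to 0.25, adjusted p = 0.694) did not pass.

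In siYAP cells 4 of the 15 probe sets rose with erastin and none fell, those of SLC7A11 (2), CHAC1 and CTH. Arrays of both groups did not overlap for 9 of the 15, against 21% of all probe sets (7 of 15 and 12.4% in siNT cells). The background of calls was 0.171% of all probe sets, 0.162% higher and 0.009% lower, and the median difference was 0.11 over the 15 probe sets and about 0 over all. Among the 10 largest rises on the array, 4 were probe sets of these genes, again a description of genes chosen with earlier results known.

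**Figure D2:**
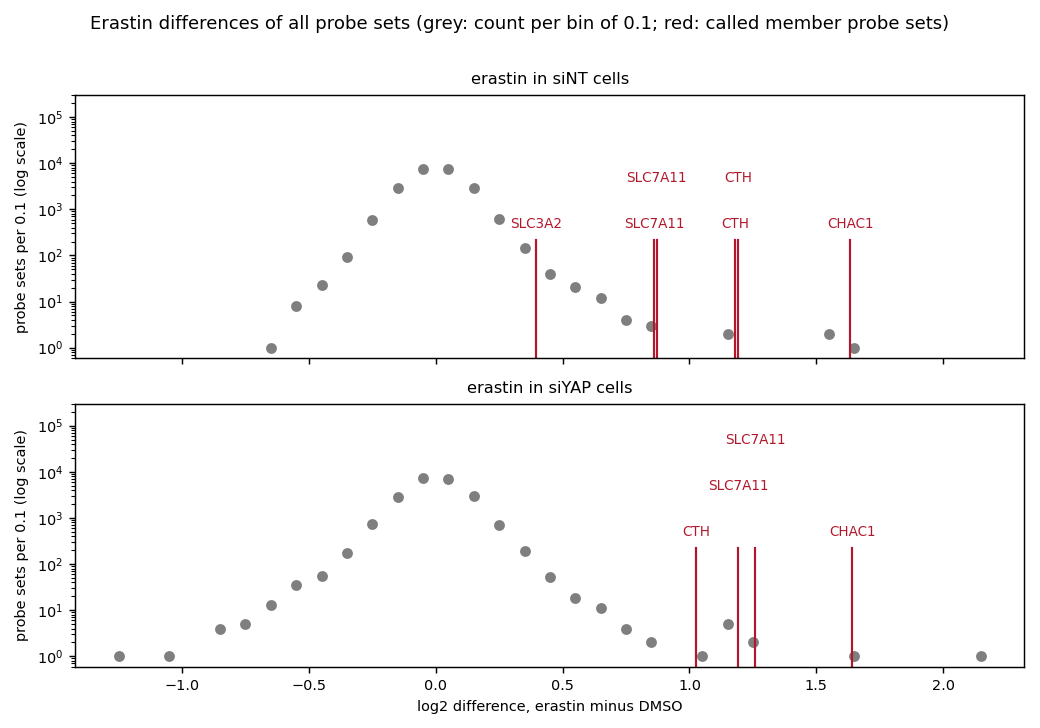
Number of probe sets (y axis, log scale, grey points per bin of 0.1) by log2 difference between erastin and DMSO (x axis), in siNT cells above and siYAP cells below; red lines mark the member probe sets that passed. CHAC1 stands at 1.63 and 1.64, and SLC3A2 has a line only in the siNT panel.

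The genes of glutathione synthesis, recycling and use did not pass with erastin in either siRNA group. Over both groups of cells the differences of GCLC (2 probe sets), GCLM, GSS (2 probe sets), GSR and GPX4 ran from -0.15 to 0.11, with adjusted p of 0.579 or more. For GCLM, the modifier subunit that raises the ligase's affinity for glutamate, the 95% intervals were -0.10 to 0.20 in siNT and -0.24 to 0.06 in siYAP cells. For GPX4 they were -0.16 to 0.18 and -0.05 to 0.28. CBS, which makes the cystathionine that CTH cleaves, differed by 0.24 (adjusted p = 0.491) and 0.28 (adjusted p = 0.38). Its probe set lay at 4.53 to 5.13 on all arrays, and a near-identical copy of CBS in the reference makes its value uncertain.

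YAP silencing lowered CHAC1, CTH and GCLM in cells given DMSO, and SLC7A11 and SLC3A2 by less, with calls that some alternatives ended. In DMSO 9 of the 15 probe sets were called, 7 lower (SLC7A11, 2 probe sets, SLC3A2, CHAC1, CTH, 2 probe sets, and GCLM) and 2 higher (GCLC and GSS). Silencing moved much of the transcriptome: 27.4% of all probe sets were called, 14.4% higher and 12.9% lower. The median difference was -0.22 over the 15 probe sets and 0.02 over all. The arrays of both groups did not overlap for 12 of the 15, against 40.8% of all probe sets.

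CTH 217127_at was 1.86-fold lower in siYAP cells with DMSO (log2 difference -0.90, SE 0.0947, adjusted p = 1.30e-05 by limma), and 206085_s_at was 1.47-fold lower (-0.55, SE 0.148, adjusted p = 0.0133, and 0.0614 without siYAP with DMSO replicate 1). CHAC1 was 1.69-fold lower (-0.75, SE 0.0669, adjusted p = 3.03e-06 by limma). For both genes every siYAP array lay below every siNT array.

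GCLM read 10.96, 10.95 and 10.81 in siNT with DMSO and 10.13, 10.10 and 10.23 in siYAP with DMSO. Under erastin it read 10.86, 10.97 and 11.04 in siNT cells and 10.00, 10.12 and 10.06 in siYAP cells. All 6 siYAP arrays lay below all 6 siNT arrays, and neither erastin group stood apart from its DMSO group. The fall was 1.69-fold in DMSO (log2 difference -0.76, SE 0.0682, adjusted p = 3.43e-06 by limma) and 1.86-fold under erastin (-0.89, SE 0.0682, adjusted p = 9.40e-07 by limma).

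GCLC, the catalytic partner of GCLM, was higher at 1 of its 2 probe sets. Its probe set 202922_at read 8.43, 8.47 and 8.19 in siNT and 8.55, 8.72 and 8.67 in siYAP cells with DMSO, a rise of 0.28 (adjusted p = 0.0431). That call was lost with the replicate block (adjusted p = 0.0713) and without siNT with DMSO replicate 1 or 3 or siYAP with DMSO replicate 2 or 3 (up to 0.167). The brighter 202923_s_at, at 8.78, 8.77 and 8.59 against 8.87, 8.91 and 9.04, differed by 0.23 and did not pass (adjusted p = 0.0641). A call arose in 7 of 15 alternatives, 1 of which averaged it with 202922_at (0.25, adjusted p = 0.0312). The others, on 202923_s_at alone, gave adjusted p of 0.0314 to 0.0497. GSS 211630_s_at rose by 0.21 (adjusted p = 0.0337), a call lost when only the 6 arrays were fitted and without any siNT array with DMSO or siYAP with DMSO replicate 1 or 2 (up to 0.138). Its brighter probe set 201415_at differed by 0.16 and did not pass (adjusted p = 0.0716). A call arose in 6 of 15 alternatives, 1 of which averaged both GSS probe sets (0.18, adjusted p = 0.00969). The others, on 201415_at alone, gave adjusted p of 0.0217 to 0.0499 and included the fit without siNT with DMSO replicate 3.

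The import genes fell little in DMSO. SLC7A11 fell by 0.22 at 209921_at (adjusted p = 0.0328) and by 0.34 at 217678_at (adjusted p = 0.0486), with 0.24 lower at 207528_s_at not passing (adjusted p = 0.2). Leaving out siNT with DMSO replicate 2 or 3 or siYAP with DMSO replicate 1 or 2 ended the call at 209921_at (adjusted p up to 0.127), and that at 217678_at was lost with the replicate block, with centring, and without siNT with DMSO replicate 1 or 2 or any siYAP array with DMSO (up to 0.187). SLC3A2 fell by 0.27 (adjusted p = 0.0121), not called without siNT with DMSO replicate 1 or siYAP with DMSO replicate 1 (adjusted p up to 0.0527). GSR, which regenerates glutathione with NADPH, differed by -0.13 (adjusted p = 0.276), CBS by -0.16 (adjusted p = 0.235) and GPX4 by 0.18 (adjusted p = 0.112). The GPX4 value rested in part on siNT with DMSO replicate 3: without that array it was 0.27 and passed (adjusted p = 0.00853), as it did with array weights (0.015) and with trended and robust variances (0.0349).

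**Figure D3:**
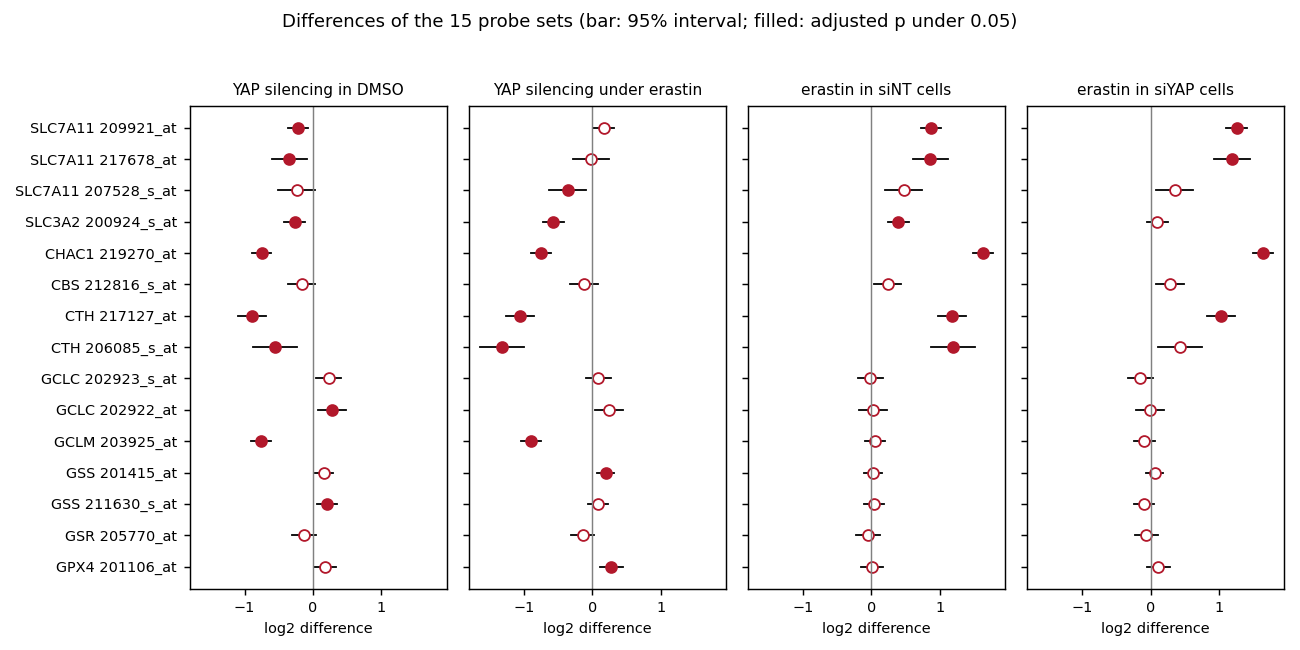
Log2 difference (x axis) of each probe set (rows) in the 4 comparisons, with 95% intervals from limma; filled points passed an adjusted p of 0.05. The columns for silencing show CHAC1, CTH and GCLM to the left of 0, and those for erastin show CHAC1, CTH and SLC7A11 to the right.

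Under erastin, silencing called 8 of the 15 probe sets, 6 lower (SLC7A11 207528_s_at, SLC3A2, CHAC1, both of CTH, and GCLM) and 2 higher (GSS 201415_at and GPX4). The background was 28.9% of all probe sets, 16% higher and 12.9% lower, and the median difference was -0.12 over the 15 and about 0 over all. Arrays of both groups did not overlap for 10 of the 15, against 40.1% of all probe sets. This comparison shares no array with the one in DMSO, but each shares a group with both erastin comparisons.

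CTH fell by 1.05 at 217127_at (SE 0.0947, adjusted p = 3.61e-06 by limma) and by 1.31 at 206085_s_at (SE 0.148, adjusted p = 2.32e-05 by limma; 1.09 lower without siNT with erastin replicate 3). CHAC1 was 1.68-fold lower (-0.74, SE 0.0669, adjusted p = 3.48e-06 by limma). SLC3A2 was 1.48-fold lower (-0.57, SE 0.0711, adjusted p = 5.25e-05 by limma).

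GPX4, the selenoenzyme that reduces lipid peroxides, read 11.84, 11.80 and 11.70 in siNT with erastin and 12.04, 12.08 and 12.07 in siYAP with erastin. The groups did not overlap, and the rise was 1.22-fold (log2 difference 0.28, SE 0.0763, adjusted p = 0.0138 by limma). In DMSO the siNT arrays had read 11.70, 11.66 and 11.95 and the siYAP arrays 11.98, 11.97 and 11.89, with overlap. GCLC 202922_at differed by 0.25 and did not pass (adjusted p = 0.0697), but was called in 4 of 13 alternatives, with a value of 0.34 without siNT with erastin replicate 3 (adjusted p = 0.0145). GSS 201415_at rose by 0.20 (adjusted p = 0.0255), a call lost without siNT with erastin replicate 2 or 3 or siYAP with erastin replicate 1 or 3 and in the fit of 6 arrays (adjusted p up to 0.102).

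The SLC7A11 probe sets disagreed under erastin. Probe set 209921_at was 0.17 higher in siYAP cells (adjusted p = 0.093, and 0.0469 without siNT with erastin replicate 3), 217678_at differed by -0.02 (95% interval -0.27 to 0.24) and 207528_s_at fell by 0.36 (adjusted p = 0.0469). The last call was lost without siNT with erastin replicate 3 or any siYAP array with erastin, in the fit of 6 arrays and with array weights (adjusted p up to 0.164). No direction can thus be given for the gene in this comparison.

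Whether the erastin response depended on YAP was tested as the interaction, the erastin difference in siYAP cells minus that in siNT cells. In limma 0 of the 15 probe sets passed, against 0% of all 22215, and at an unadjusted p under 0.05 there were 3 of 15 and 2005 of 22215 (9.03%). The 3 were SLC7A11 209921_at (0.39, 95% interval 0.17 to 0.60, adjusted p = 0.41), SLC3A2 (-0.30, -0.52 to -0.08, adjusted p = 0.51) and CTH 206085_s_at (-0.76, -1.21 to -0.30, adjusted p = 0.477). CHAC1 had an interaction of 0.01 with an interval of -0.20 to 0.21. For CTH 217127_at the interval was -0.45 to 0.14 around -0.15. A difference between the erastin responses in both siRNA groups was therefore not shown for any member.

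Other genes of the pathway, 80 measured of 90 listed, were taken by their brightest probe set. After silencing in DMSO 24 of the 80 rose and 10 fell, where 17% and 14.6% of all genes did (31.6% called), and under erastin 20 rose and 12 fell, where 19% and 14% did (33% called). With erastin 2 of 80 rose in siNT and 2 in siYAP cells, and none fell, where 0.435% and 0.234% of all genes were called (0.326% higher and 0.109% lower in siNT, 0.234% higher and 0% lower in siYAP cells). The medians over the 80 were 0.07, 0.03, 0.05 and 0 in that order, and those over all genes were 0.02 or less.

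Of 6 other carriers of cystine or cysteine, 3 rose and 2 fell after silencing in DMSO. Over all genes, silencing raised 17% and lowered 14.6% in DMSO, and 19% and 14% under erastin. SLC1A1, a glutamate and cysteine transporter, rose by 1.09 (adjusted p = 9.15e-08) and SLC3A1, heavy chain of the renal cystine transporter, by 0.87 (adjusted p = 3.40e-07). SLC1A4, a neutral amino acid transporter, fell by 1.46 (adjusted p = 2.73e-08), and CTNS, which exports cystine from lysosomes, by 0.35. SLC1A4 was also the only 1 of the 6 that passed with erastin, rising by 0.51 in siNT cells (adjusted p = 0.00396) and by 1.12 in siYAP cells (adjusted p = 2.25e-06). Under erastin, silencing again called 3 higher and 2 lower, among them SLC1A1 (1.00), the lysosomal cysteine importer gene MFSD12 (0.67) and SLC1A4 (-0.84). Of the 5 other light chains that pair with SLC3A2, 1 fell in each silencing comparison, the leucine transporter gene SLC7A5 (-0.65 in DMSO and -0.67 under erastin), and 0 passed with erastin.

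In the methionine cycle and cysteine catabolism 4 of 20 genes rose and 2 fell after silencing in DMSO, and 4 and 6 under erastin. The 6 of 20 called in DMSO lay near the share of all genes, 31.6% (17% higher and 14.6% lower). Under erastin 33% of all genes were called (19% higher and 14% lower). The sulfite oxidase gene SUOX rose by 0.77 and 0.89 in the respective comparisons, while AHCY, which hydrolyses S-adenosylhomocysteine, fell by 0.24 and 0.30. Of 5 measured genes of glutathione breakdown, OPLAH rose by 0.36 and 0.51 and GGCT, gamma-glutamylcyclotransferase, fell by 0.40 and 0.30; the third call in DMSO was LAP3 (0.22). None of these 25 genes passed with erastin.

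Glutathione S-transferases rose in 8 and fell in 1 of 17 cases after silencing in DMSO and rose in 7 under erastin, led by the microsomal MGST2 (0.76 and 0.77). The shares of all genes, for this and the next lists, were 17% higher and 14.6% lower in DMSO and 19% and 14% under erastin. GSTA4 rose by 0.58 in DMSO, where GSTZ1 fell by 0.29, and GSTK1 rose by 0.63 under erastin. Probes for one transferase may read its near-identical relatives, which leaves single values in this family uncertain. Among 5 other glutathione peroxidases GPX7, an enzyme of the endoplasmic reticulum, rose by 0.86 in DMSO and 1.24 under erastin, and GPX3 by 0.31 in DMSO. Of 7 glutaredoxin and glyoxalase genes, GLRX rose by 0.35 and 0.48, and ESD by 0.17 in DMSO. In the NADPH and export list of 10 genes, 2 rose and 2 fell in DMSO and 2 and 1 under erastin, among them TKT, transketolase (-0.31 and -0.52), and ABCC4, an export pump (0.25 and 0.19). None of these 39 genes passed with erastin.

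**Figure D4:**
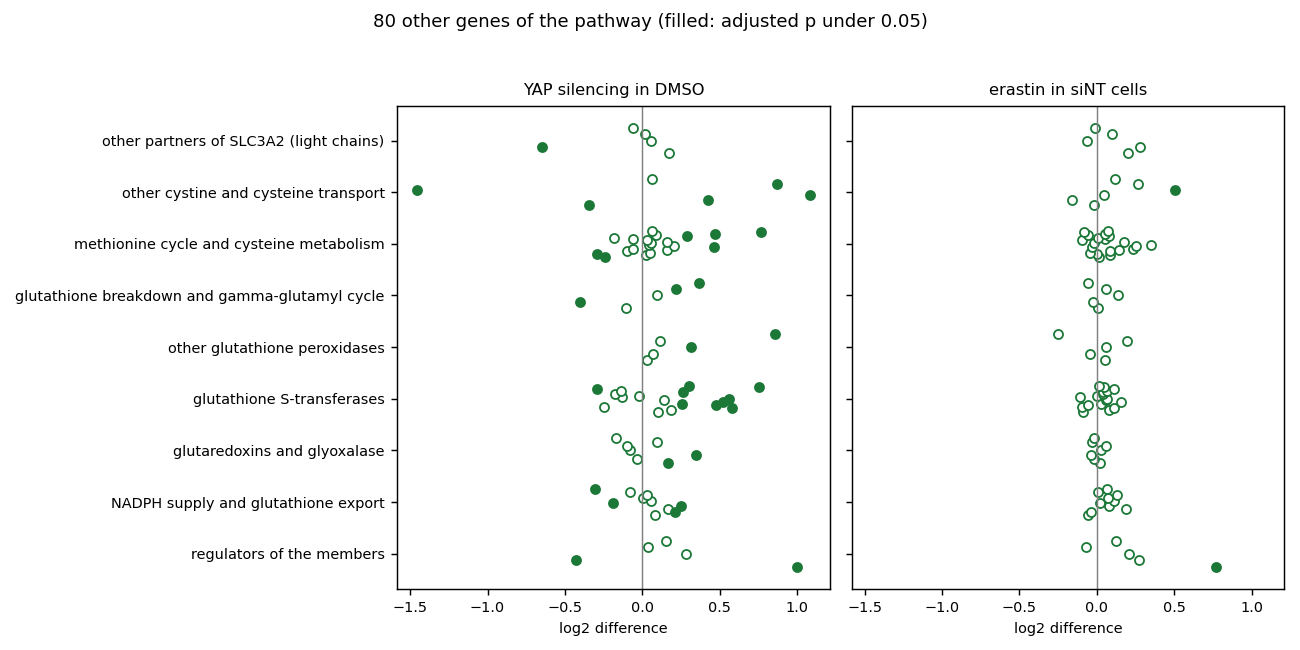
Log2 difference (x axis) of the 80 other genes of the pathway, by list (rows), after silencing in DMSO (left) and with erastin in siNT cells (right); filled points passed an adjusted p of 0.05. Silencing spreads the points from -1.46 (SLC1A4) to 1.09 (SLC1A1), while with erastin SLC1A4 and ATF3 are the filled points.

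Among the regulators, ATF4 mRNA stood at 12.50 ± 0.03 (SD, n = 3) in siNT with DMSO and 12.77 ± 0.04 with erastin, and in siYAP cells at 12.07 ± 0.06 with DMSO and 12.38 ± 0.03 with erastin. It was lower after silencing in DMSO (-0.43, adjusted p = 5.52e-05) and under erastin (-0.39, adjusted p = 1.21e-04). With erastin it differed by 0.27 in siNT cells (adjusted p = 0.0675) and rose by 0.31 in siYAP cells (adjusted p = 0.0422). ATF3 rose by 1.00 and 0.54 after silencing and by 0.77 with erastin in siNT cells. In siYAP cells ATF3 stood at 9.46 with DMSO and 9.77 with erastin, without overlap of the arrays, and was not called. NFE2L2 (-0.02 to 0.15), its inhibitor KEAP1 (-0.07 to 0.05) and BACH1, a repressor at antioxidant response elements (-0.13 to 0.28), did not pass in these 4 comparisons, with adjusted p of 0.0588 or more.

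The genes whose profile over the 12 arrays lay nearest to 4 members were found by the root mean square difference between profiles centred on their mean, in log2 units. For CTH they were ASNS (asparagine synthetase, 0.16), DDIT4 (0.16) and PCK2 (0.23), where the median over all genes was 0.76. For CHAC1 they were DDIT4 (0.22), CTH itself (0.31) and ASNS (0.37), with a median of 0.91. For SLC7A11 the nearest were farther in relation to the median of 0.57: KLF4 (0.24), NUPR1 (0.26) and TMEM268 (0.30). GCLM had the closest neighbours, CPNE3 (0.05), TMED5 (0.06) and NDC1 (0.06), against a median of 0.44. These distances are descriptions over arrays that share treatments.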

How the data were processed

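RNA was measured on 12 single-channel Affymetrix arrays, grouped and numbered by their titles. Per the submitters' processing notes, the authors used Expression Console and RMA. No source used here names versions, settings, the array type or a scan date, and no batch was tested. Running numbers in the titles place all siNT before all siYAP arrays, and DMSO before erastin arrays within each siRNA. What these numbers stand for is not stated, and an effect of that order cannot be told apart from the treatments. The deposited values are taken as log2 from their range and near-equal array medians. All 22277 probe sets were kept except 62 array controls. A platform annotation gave 1 symbol for 19065 of the 22215 tested (11963 genes), several for 1043 and none for 2107; a RefSeq table matched 19053 and changed 0 symbols.

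A mean per group was fitted to every probe set over all 12 arrays with limma 3.58.1 in R 4.3.3 (8 residual and 4.27 prior degrees of freedom; median SE of a difference 0.0845), with Benjamini-Hochberg adjustment within each of 5 comparisons. The number of arrays limits the precision. All adjusted p-values are limma's. Samples are described as biological triplicates without saying whether cultures were separate, and the p-values cover only the spread among these samples, which may be technical.

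The genes and lists were chosen with earlier results of these data known. All probe sets of the 10 genes were named; of other genes, up to 2 rises and 2 falls per list and comparison, and ATF4, NFE2L2, KEAP1 and BACH1 throughout. ATF3 was also given with erastin in siYAP cells, where it did not pass. The 3 nearest profiles were named for 4 genes. Genes with several probe sets were represented outside the 10 by the brightest on average. The alternatives were 1 probe set per gene, probe sets averaged by gene, only the 6 arrays compared, a replicate block, centring, quantile normalization, removal of the dimmest 30%, trended and robust variances, array weights, a 2-fold minimum, the submitters' zero transformation (all 3 arrays beyond 1 log2 unit from the control mean) and leaving out each array.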

Additional observations from a re-analysis of the deposited data

How the results depend on the processing

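The number of the 10 genes with any called probe set was 7 after silencing in DMSO, 7 after silencing under erastin, 4 with erastin in siNT cells, 3 with erastin in siYAP cells and 0 for the interaction. This count favours genes with several probe sets, and its share over all genes is not given. By the brightest probe set of each gene the counts were 5, 6, 4, 3 and 0, where 31.6%, 33%, 0.435%, 0.234% and 0% of all genes were called. In DMSO GCLC and GSS entered only by their dimmer probe set, and under erastin SLC7A11 only by its dimmest. With a 2-fold minimum the counts by any probe set became 0, 1, 2, 3 and 0, and with the zero transformation the first 4 were 0, 1, 2 and 2, since most differences are under 2-fold. Leaving out an array gave 4 to 7, 5 to 7, 3 to 3, 3 to 3 and 0 to 0; the 4 arose without siNT with DMSO replicate 1 and without siYAP with DMSO replicate 1 or 2, where CHAC1, CTH and GCLM were still called. With the replicate block the counts were 6, 7, 3, 3 and 0. No share of all genes is given for the counts under these alternatives, which describe the 10 genes alone. The labels do not say whether replicate numbers pair the arrays. Of 18 same-numbered pairs 3 correlated above 0.1, with a median of -0.02 against 0.003 for 36 other pairs. Of the 12 arrays 0 lay closest to their own number. With 3 arrays per group these values cannot show whether the cultures were paired. Of 27 called differences of single probe sets, 16 kept their direction and call in every alternative other than the fold criteria, and no called difference changed sign. The share of all probe sets called with erastin in siNT cells, 0.297% here, ran from 0.018% (zero transformation) to 0.837% (array weights). No detection calls were used, so signal over background is unknown for single probe sets.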
